A study of Mus musculus with 11 samples.

Results

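Slc15a4, Ubr4, Mfsd1, Wars2, Ppa2, Tyms, Iscu and Emc3 are 8 mouse genes that each hold 1 of the most changed chromatin peaks between old and young haematopoietic stem cells (HSCs). They were picked from the comparisons with young HSCs for that 1 extreme peak, and every peak assigned to them was then collected. This gave 38 of 94410 peaks for 8 of 20810 genes, of which 8 were extreme peaks and 30 were other peaks of the same genes. The extreme peak is the one with the largest absolute Wald statistic, a fold change divided by its standard error (SE), in either comparison with young HSCs. Since these values chose the genes, changes against young HSCs are given as a description with no test. The comparison between the old fractions did not enter the choice, although it uses the same old libraries.

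HSCs were purified from bone marrow at steady state and profiled by ATAC-seq, which reads open chromatin from the places where a transposase can cut. Animals of every group were Gfplc3/Gfplc3, which adds GFP to the autophagosome protein LC3. The groups were old AThi (GFPlo) HSCs with 3 libraries, old ATlo (GFPhi) HSCs with 3 libraries from the same numbered pairs, and unfractionated young HSCs with 5 libraries. Ages, sexes and the number of animals per library are not given in the sources used here, so age, fractionation by GFP and any difference in animals cannot be told apart in the comparisons with young HSCs. GFP level stands for autophagy only as far as this reporter follows it. All values below come from the authors' deposited tables of 3 comparisons, which give 1 value per peak and group contrast and none per library. In bulk libraries, more cells with an open site and a more open site in each cell cannot be told apart.

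Promoter peaks were found at 12 of 12 HSC marker genes, with a median level of 159 mean normalised counts in the authors' deposited tables. They were found at 0 of 4 T cell, 2 of 4 B cell and 2 of 6 myeloid marker genes. Promoters of erythroid (3 of 4), megakaryocyte (3 of 3) and stromal or endothelial markers (4 of 5) were also open, with medians of 227, 196 and 86.3 mean normalised counts in the authors' deposited tables. The part of other cell types in the results below was not tested.

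A peak of accessible DNA usually marks a promoter or an enhancer, where bound proteins keep nucleosomes away. Here each peak carries the gene with the nearest start site, which need not be the gene it acts on. Of the 8 genes, 2 encode lysosomal membrane transporters (Slc15a4 and Mfsd1), 3 mitochondrial proteins (Wars2, Ppa2 and Iscu), 1 a ubiquitin ligase (Ubr4), 1 an enzyme of DNA precursor synthesis (Tyms) and 1 a subunit of a membrane insertion complex of the endoplasmic reticulum (Emc3). Autophagosomes deliver their contents to lysosomes, and damaged mitochondria are among the cargo. Peak coordinates are in mouse build mm39, 1-based.

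At the extreme peaks of 6 genes both old fractions were higher than young HSCs, and at those of Iscu and Emc3 both were lower. Group levels were derived from the authors' mean level and fold changes, as the 3 levels that have those ratios and that mean over 11 libraries. At the Slc15a4 peak the derived mean normalised count was 107 in AThi, 99.3 in ATlo and 6.05 in young HSCs. At the Mfsd1 peak it was 88.8 in AThi, 86.4 in ATlo and 8.10 in young HSCs. For scale, the median peak of the whole series had a mean normalised count of 27.5 in the authors' deposited tables. At the Iscu peak the order was turned round, with 9.89 in AThi, 7.30 in ATlo and 76.6 in young HSCs. The Emc3 peak had 7.91 in AThi, 11.9 in ATlo and 65.5 in young HSCs. Both old levels lay on the same side of the young level in all 8 genes.

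**Figure D1:**
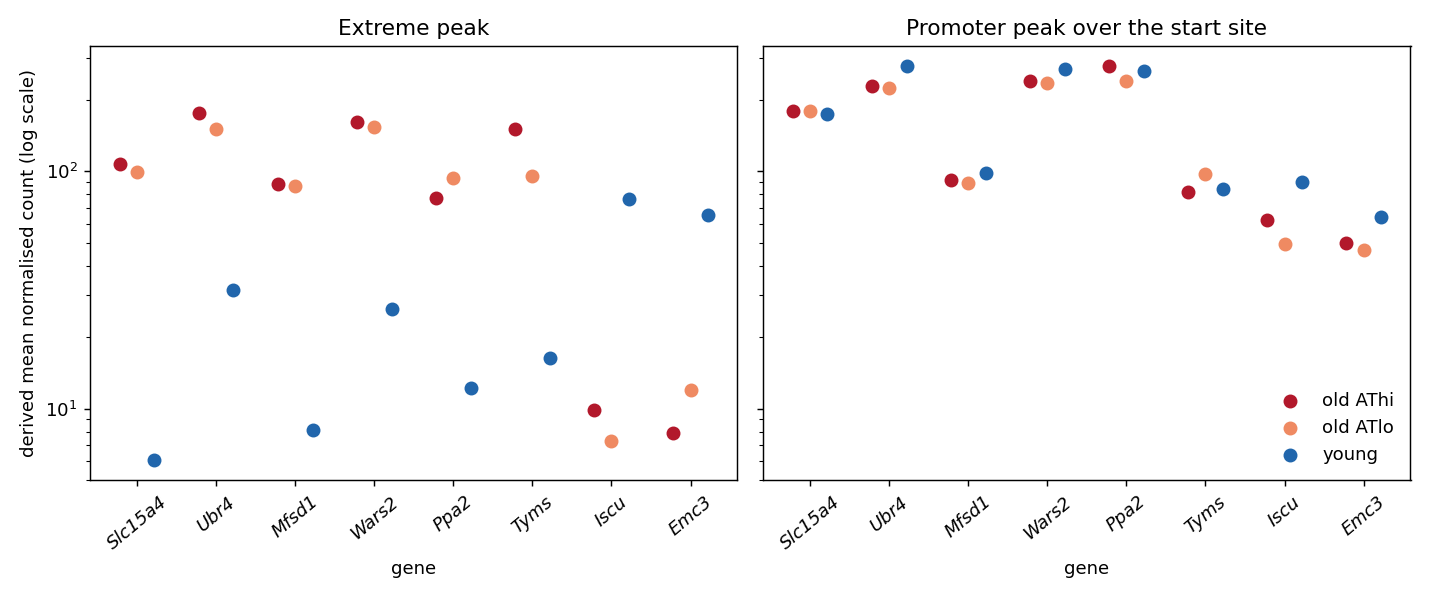
Derived mean normalised count (log scale) in old AThi, old ATlo and young HSCs, for the extreme peak of each gene and for the promoter peak over its start site; each point is 1 group level, with no error because the deposited tables hold no values per library. The extreme peaks differ widely between old and young, from 107 against 6.05 at Slc15a4 to 9.89 against 76.6 at Iscu in AThi against young, while the 3 promoter points of each gene lie within 2-fold of each other.

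Slc15a4 encodes a proton-coupled transporter of histidine and peptides in the lysosomal membrane, known in immune cells for its need in endosomal Toll-like receptor signalling. Its extreme peak lies on chromosome 5 (127614254 to 127615075), in intron 5 of 8 of a different gene, Tmem132c, at 79.4 kb from the Slc15a4 start site. In the authors' deposited tables it was 17.7-fold higher in AThi than in young HSCs (log2 4.15, SE 0.32) and 16.4-fold higher in ATlo than in young HSCs (log2 4.04, SE 0.32). It ranked 1 among higher peaks by Wald statistic in both comparisons. The other 6 peaks of Slc15a4 had log2 changes of -0.65 to 0.04 in AThi and -0.30 to 0.05 in ATlo, both against young HSCs, in the authors' deposited tables, and none was called. A call here means an adjusted p under 0.05 in the authors' table. Across the series, higher calls against young HSCs took in 7.57% of peaks in AThi and 6.88% in ATlo, and lower calls 2.74% in AThi and 2.54% in ATlo. The promoter peak over the start site had derived counts of 179 in AThi, 180 in ATlo and 174 in young HSCs. The nearest peaks lay 25.2 kb to the left and 72.8 kb to the right, and of 10 other peaks within 200 kb 0 were called higher in both fractions, where 5.39% of all peaks were.

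Mfsd1 encodes a lysosomal dipeptide exporter that works with the accessory protein GLMP. Its extreme peak is on chromosome 3 (67508849 to 67509468) in the last intron, 15 of 15, at 18.7 kb from the start site. The authors' deposited tables gave log2 changes of 3.46 (SE 0.31) in AThi and 3.41 (SE 0.30) in ATlo, each over young HSCs. Of 6 other Mfsd1 peaks, 1 was also called higher in both fractions, a weak distal peak 108 kb from the extreme one. In the authors' deposited tables that peak had log2 changes of 1.92 (SE 0.52) in AThi and 1.93 (SE 0.51) in ATlo. None of the 5 peaks within 50 kb was called. The promoter peak had derived counts of 92.1 in AThi, 89.1 in ATlo and 98.7 in young HSCs, so the promoter stayed within a log2 change of -0.15 and -0.10 in the authors' deposited tables.

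The Mfsd1 promoter is printed because it shows what lies at the start site whose peak was not called while the intron peak was. The sequence is from RefSeq in build GRCm38.p6, chr3:67582518-67582817, plus strand, 250 bases before to 50 after the start. Capitals mark CACGTG, the E-box core, and TCACGTGA, which holds that core and resembles the element through which TFEB acts on lysosomal genes.
Mfsd1: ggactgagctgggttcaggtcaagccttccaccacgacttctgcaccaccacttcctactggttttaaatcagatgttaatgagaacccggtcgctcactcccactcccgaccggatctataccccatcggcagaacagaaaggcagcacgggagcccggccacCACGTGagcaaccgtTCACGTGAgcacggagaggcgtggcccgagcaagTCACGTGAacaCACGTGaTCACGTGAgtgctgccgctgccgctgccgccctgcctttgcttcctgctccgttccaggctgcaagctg
The window holds 5 CACGTG, of which 3 lie inside TCACGTGA. Among 32851 RefSeq promoter windows of this length, 7.15% hold at least 1 CACGTG and 0.974% at least 1 TCACGTGA, each searched on both strands. These motifs were chosen after the promoters had been read, and a match is a description of the letters alone. Of the 8 genes, 7 had a promoter in the table. Apart from Mfsd1, only the Tyms window held CACGTG, with 1 match, and none of the other 6 held TCACGTGA.

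Ubr4 encodes a very large ubiquitin ligase that recognises destabilising N-terminal residues. Its extreme peak covers exon 41 of 106 on chromosome 4 (139151746 to 139152363), at 43.8 kb from the start site. Derived counts were 177 in AThi, 151 in ATlo and 31.5 in young HSCs. The authors' deposited tables gave log2 changes of 2.49 (SE 0.19) in AThi and 2.26 (SE 0.19) in ATlo over young HSCs. A second peak in intron 1 of 105 was also called higher, with log2 changes of 1.57 (SE 0.31) in AThi and 1.31 (SE 0.31) in ATlo in the authors' deposited tables. The nearest peak, in exon 48 and only 4.84 kb from the extreme one, had 84.6 mean normalised counts and log2 changes of 0.04 (SE 0.21) in AThi and -0.19 (SE 0.21) in ATlo in the authors' deposited tables. The exon 48 peak was not called.

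Tyms encodes thymidylate synthase, which makes the thymidine nucleotide needed for DNA replication. Its extreme peak is on chromosome 5 (30268173 to 30268385) over exon 5 of 7. At 213 bp it was among the narrowest peaks of the series, whose median width was 547 bp. The derived count was 151 in AThi, 95.7 in ATlo and 16.4 in young HSCs. Per the authors' deposited tables, it was 9.22-fold higher in AThi (log2 3.21, SE 0.29) and 5.84-fold higher in ATlo (log2 2.55, SE 0.29) than in young HSCs. Tyms had 1 other peak, its promoter, with log2 changes of -0.04 (SE 0.20) in AThi and 0.21 (SE 0.19) in ATlo against young HSCs in the authors' deposited tables. Of the 5 peaks within 50 kb, 1 was called higher in both fractions, the promoter of Garem2 at 42.0 kb, with log2 changes of 1.01 (SE 0.23) in AThi and 0.90 (SE 0.23) in ATlo in the authors' deposited tables.

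Wars2 encodes the mitochondrial tryptophanyl-tRNA synthetase. Here the extreme peak was not isolated. It lies upstream of the gene on chromosome 3 (99020197 to 99021299), 27.1 kb before the start site, and had derived counts of 161 in AThi, 154 in ATlo and 26.3 in young HSCs. The authors' deposited tables gave log2 changes of 2.61 (SE 0.22) in AThi and 2.55 (SE 0.22) in ATlo over young HSCs. A second upstream peak 12.2 kb away had log2 changes of 2.41 (SE 0.56) in AThi and 2.36 (SE 0.55) in ATlo in the authors' deposited tables. A peak in intron 1 had 2.08 (SE 0.62) in AThi and 2.10 (SE 0.61) in ATlo, again in the authors' deposited tables. All 3 were called, and the promoter between them was not, at -0.18 (SE 0.16) in AThi and -0.19 (SE 0.15) in ATlo in the authors' deposited tables. The next peak to the left, 60.2 kb away and assigned to the predicted gene Gm12440, was called too, with log2 changes of 1.91 in AThi and 1.93 in ATlo in the authors' deposited tables. Within 200 kb, 6 of 17 other peaks (35.3%) were called higher in both fractions, where 5.39% of all peaks were. For the other 5 genes whose extreme peak was higher, the count was 0 of 10 at Slc15a4 and 1 of 33 at Ubr4. It was 2 of 12 (16.7%) at Mfsd1, 0 of 9 at Ppa2 and 1 of 20 at Tyms.

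Ppa2 encodes the mitochondrial inorganic pyrophosphatase. Its extreme peak is intergenic on chromosome 3 (132990113 to 132990926), 24.9 kb before the start site. Derived counts were 77.5 in AThi, 93.8 in ATlo and 12.2 in young HSCs. It was the only gene of the 6 with a higher derived count in ATlo than in AThi. That difference was not called (log2 -0.27, SE 0.27, AThi over ATlo). With log2 changes centred on the strongest promoters, the Mfsd1 and Wars2 peaks were also higher in ATlo, and not called. The authors' deposited tables gave log2 changes of 2.67 (SE 0.29) in AThi and 2.94 (SE 0.28) in ATlo over young HSCs. Of its other peaks, 2 were called, both lower and in AThi alone. In the authors' deposited tables, intron 1 had -1.20 (SE 0.41) in AThi and -0.78 (SE 0.37) in ATlo on the log2 scale. The strong peak over exon 6 of 12, with 318 mean normalised counts, had -0.57 (SE 0.18) in AThi and -0.28 (SE 0.17) in ATlo in the authors' deposited tables. That 1 fraction passed and the other did not is no difference between them, and for neither peak was one called between AThi and ATlo. The Ppa2 promoter had derived counts of 277 in AThi, 240 in ATlo and 266 in young HSCs.

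Iscu encodes the scaffold on which mitochondria assemble iron-sulphur clusters. Its extreme peak, over exon 4 of 5 on chromosome 5 (113914892 to 113915334), ranked 1 among lower peaks in both comparisons. In the authors' deposited tables its log2 change was -2.95 (SE 0.38) in AThi and -3.39 (SE 0.39) in ATlo against young HSCs, which is 7.75-fold and 10.5-fold lower. The change was not confined to that peak. A peak in intron 3, only 0.178 kb to its left, had -2.14 (SE 0.60) in AThi and -2.46 (SE 0.60) in ATlo in the authors' deposited tables. The promoter peak over the start site had derived counts of 62.6 in AThi, 49.3 in ATlo and 90.3 in young HSCs. That promoter was called lower in ATlo alone, with log2 changes of -0.53 (SE 0.28) in AThi and -0.87 (SE 0.28) in ATlo in the authors' deposited tables. Next to it, the promoter of Sart3, a splicing factor gene, was called lower in both fractions, at -0.73 (SE 0.25) in AThi and -0.82 (SE 0.24) in ATlo in the authors' deposited tables. Of 12 peaks within 50 kb of the extreme one, 3 were called lower in AThi and 3 in ATlo. Within 200 kb, 3 of 53 were called lower in both, where 1.18% of all peaks were.

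Emc3 encodes a core subunit of the complex that inserts membrane proteins into the endoplasmic reticulum. Its extreme peak covers exon 6 of 8 on chromosome 6 (113494443 to 113495206), at 13.4 kb from the start site. In the authors' deposited tables its log2 change was -3.05 (SE 0.42) in AThi and -2.46 (SE 0.34) in ATlo against young HSCs, which is 8.27-fold and 5.49-fold lower. Neither of the other 2 Emc3 peaks was called. The promoter had derived counts of 49.8 in AThi, 46.5 in ATlo and 64.0 in young HSCs. Of 7 peaks within 50 kb none was called lower and 1 was called higher, a 3′ UTR peak assigned to Prrt3, with log2 changes of 0.58 (SE 0.14) in AThi and 0.43 (SE 0.14) in ATlo in the authors' deposited tables.

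The Emc3 promoter is printed as the start site of a gene whose exon peak was lower and whose promoter was not called. It is from RefSeq in build GRCm38.p6, chr6:113531589-113531888, minus strand, with capitals marking CCGGAAGT, a core bound by ETS factors.
Emc3: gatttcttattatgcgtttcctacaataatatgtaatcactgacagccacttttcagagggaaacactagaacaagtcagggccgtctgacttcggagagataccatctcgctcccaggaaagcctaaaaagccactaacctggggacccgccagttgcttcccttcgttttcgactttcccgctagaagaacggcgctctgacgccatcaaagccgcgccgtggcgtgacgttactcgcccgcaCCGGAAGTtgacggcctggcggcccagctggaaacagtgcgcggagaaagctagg
This core occurs 1 time in the Emc3 window and 1 time in the Tyms window, and in none of the other 5. It is found in 3.89% of the 32851 promoter windows, on both strands.

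**Figure D2:**
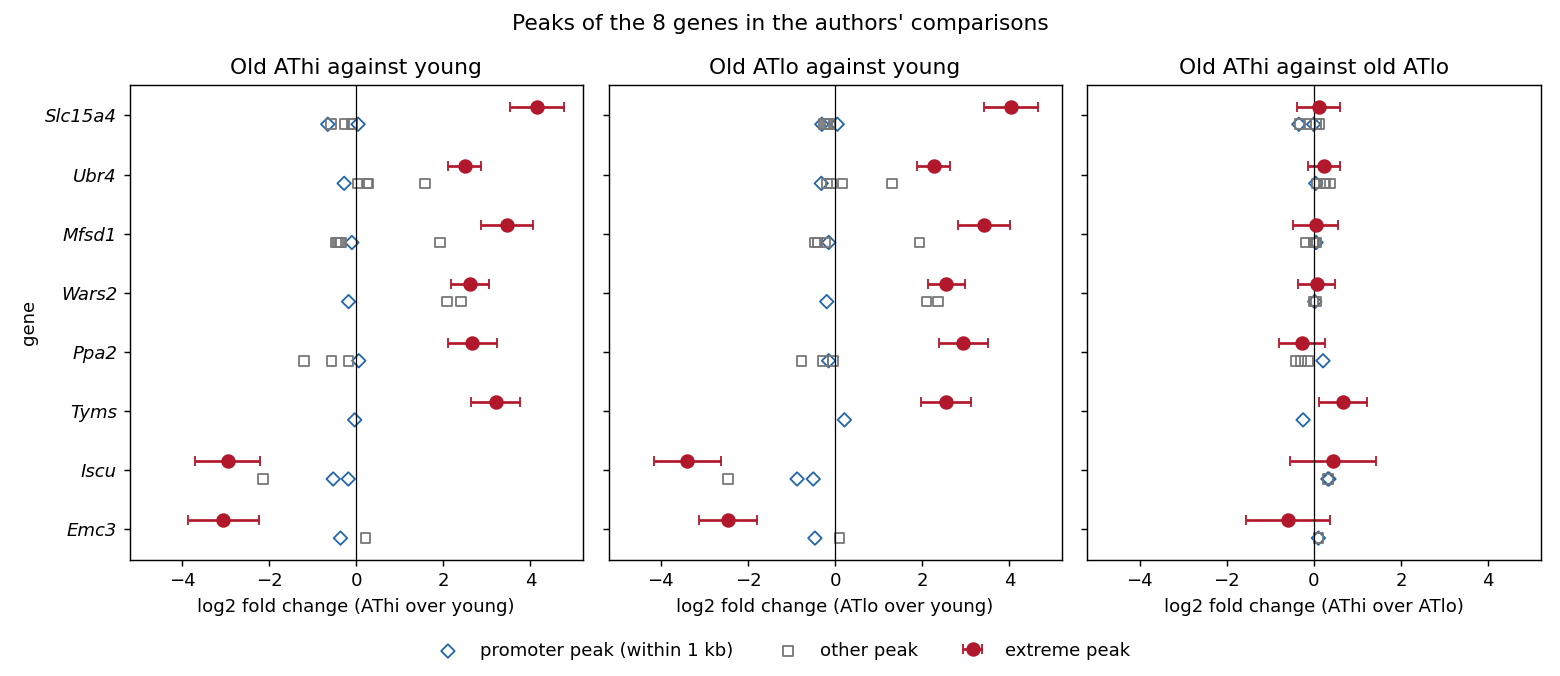
Log2 fold change of each peak of the 8 genes in old AThi over young, old ATlo over young and old AThi over old ATlo HSCs. Filled circles are the extreme peaks with 95% intervals (1.96 SE), open diamonds promoter peaks within 1 kb of a start site and open squares the remaining peaks, drawn without intervals; against young HSCs the extreme peaks reach 4.15 at Slc15a4 and -3.39 at Iscu, and between the old fractions they lie between -0.59 and 0.66.

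Counts against young HSCs describe genes chosen in those comparisons. In AThi, 10 of 38 peaks were called higher, where 7.57% of all peaks were, and 5 were called lower, where 2.74% of all peaks were. In ATlo, 10 were called higher and 4 lower, against 6.88% and 2.54% of all peaks. Without the extreme peaks, 4 of 30 were higher and 3 lower in AThi, and 4 were higher and 2 lower in ATlo. These other peaks had a median log2 change of -0.18 in AThi and -0.19 in ATlo, beside -0.04 and -0.03 for all peaks of the series, in the authors' deposited tables. With log2 changes centred on the strongest promoters, the medians of the other peaks were 0.04 in AThi and 0.12 in ATlo, so their direction depends on the scaling. Of the 10 promoter peaks within 1 kb of a start site, 0 were called in AThi and 1, that of Iscu, in ATlo. Across the series, 12% of promoter peaks were called in either direction in AThi and 12.7% in ATlo, so counts this low do not set the promoters of the 8 genes apart.

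No other peak of Slc15a4, Tyms and Emc3 was called, in either fraction, so that their extreme peaks were isolated among the peaks assigned to the gene. For Tyms this rests on 1 other peak and for Emc3 on 2. The other peaks of Ppa2 that were called went in the opposite direction, in AThi alone, and none of them was called at an adjusted p under 0.01. Ubr4 and Mfsd1 each had 1 other peak called in the same direction in at least 1 fraction, and Wars2 and Iscu each had 2. By assigned gene, the description as isolated peak changes thus fitted 4 of the 8 genes. For context, 554 peaks of the series were called at least 4-fold higher in both fractions than in young HSCs. Of the 524 of these whose gene had further peaks, 162 (30.9%) had no other peak called higher. The corresponding lower set had 31 peaks, and 12 of 29 (41.4%) had no other lower peak. These context sets were defined after the values had been seen.

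**Figure D3:**
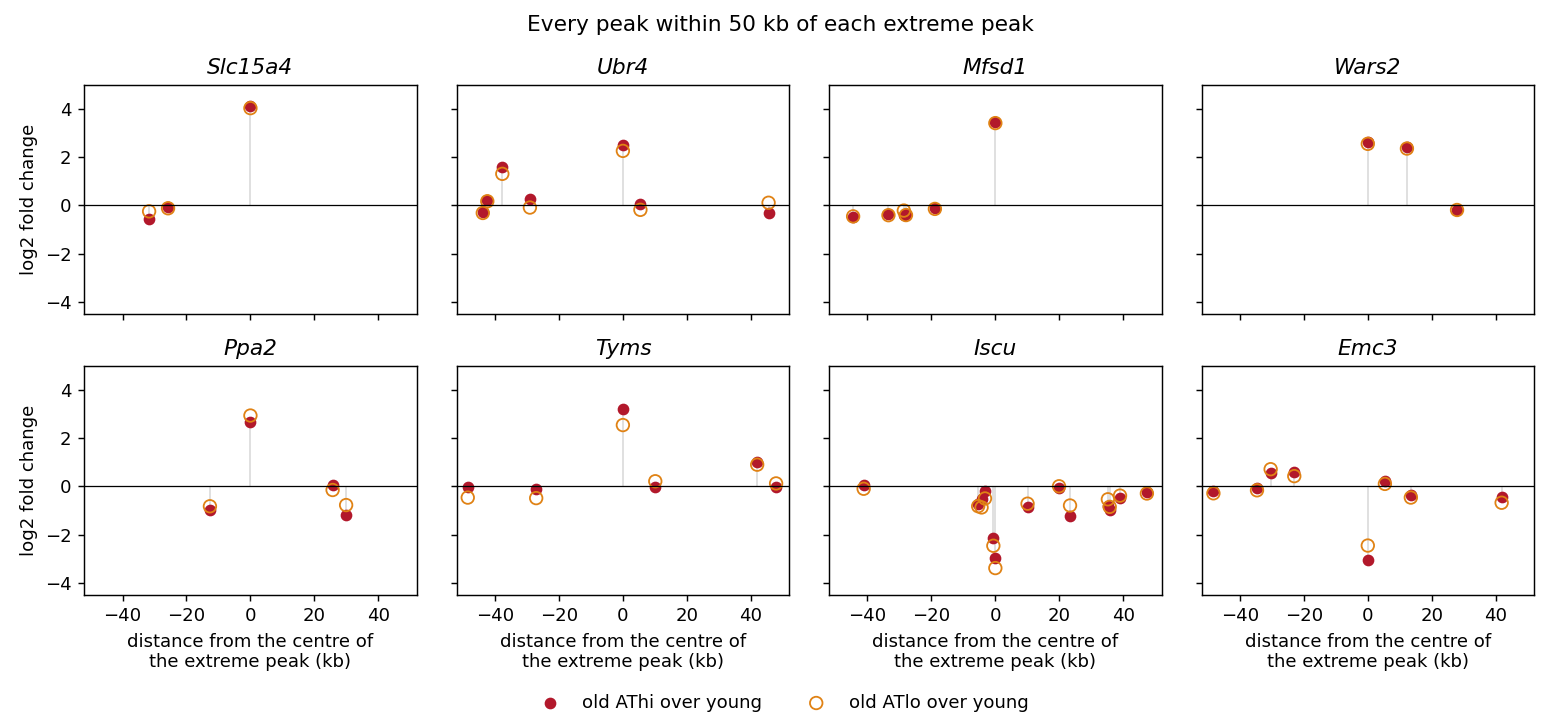
Log2 fold change against young HSCs of every peak within 50 kb of the centre of each extreme peak, whatever its assigned gene; filled circles are old AThi, open circles old ATlo, and the x axis is the distance in kb. Around Slc15a4 the 2 neighbours were not called, with log2 changes of -0.58 and -0.08 in AThi. At Wars2 a neighbour at 12.2 kb rises with the extreme peak, and at Iscu the peak 0.178 kb to the left falls with it.

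None of the extreme peaks lay at a start site, as was so of most peaks that changed this much. Of the 8, 4 overlapped an exon (Ubr4, Tyms, Iscu and Emc3), 2 an intron and 2 were distal intergenic, and 0 were promoter peaks. Exon peaks made up 4.22% of all peaks, and promoter peaks within 1 kb of a start site 19.2%. Among the 554 higher peaks of at least 4-fold, 5.05% were in exons and 6.86% at promoters. Among the 31 lower ones 10 were in exons, or 32.3%, and 3.23% were at promoters. The extreme peaks had mean normalised counts of 35.2 (Emc3) to 104 (Ubr4) in the authors' deposited tables, above the median peak of the series in every case. That is no finding about these peaks, since the Wald statistic favours peaks with many counts. The mean also takes in the groups where the peak is high. In the groups where it was low, derived counts ran from 6.05 (Slc15a4, young HSCs) to 31.5 (Ubr4, young HSCs).

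AThi and ATlo HSCs did not differ detectably at any of the 38 peaks. The adjusted p was 0.999998 for every peak of the series in the authors' deposited DESeq2 table, so 0% of 94410 peaks were called. Whether the authors' fit used the numbered pairs of old libraries is not given in the sources used here, and no paired fit could be made from these tables. At an unadjusted p under 0.05, 1 of the 38 peaks passed, where 1.78% of all peaks did. That peak was exon 5 of Tyms, 1.58-fold higher in AThi than in ATlo (log2 0.66, SE 0.28, 95% interval 0.10 to 1.21) with an unadjusted Wald p = 0.0199 and an adjusted p = 0.999998 in the authors' deposited DESeq2 table. Its promoter had a log2 change of -0.25 (SE 0.22) in the same authors' deposited table. The Slc15a4 peak differed by 0.11 between AThi and ATlo, with a 95% interval of -0.38 to 0.60, from the authors' deposited table. For Mfsd1 and Wars2 the intervals were -0.48 to 0.56 and -0.36 to 0.49, from the authors' deposited table. Those of Ubr4 and Ppa2 were -0.15 to 0.60 and -0.81 to 0.26 in the authors' deposited table. For Iscu and Emc3, with few counts in both old fractions, they were wider, at -0.55 to 1.43 and -1.56 to 0.37 in the authors' deposited table. A 2-fold difference between the old fractions, in the direction measured, lay inside the intervals of Tyms, Iscu and Emc3 and outside those of the other 5 genes.

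Genes related to the 8 were taken from 8 lists of 86 genes, of which 78 had 266 peaks. They are called partners here, but include family members and enzymes of the same class that need not work with the 8. In AThi, 13 of these peaks (4.89%) were called higher and 7 (2.63%) lower, against 7.57% and 2.74% of all peaks. In ATlo, 11 (4.14%) were called higher and 11 (4.14%) lower, against 6.88% and 2.54%. The median log2 change of the 266 peaks was -0.14 in AThi and -0.15 in ATlo in the authors' deposited tables. For the 266 peaks pooled, the shares of higher calls were below those of all peaks in both fractions. The share of lower calls was below in AThi and above in ATlo. The lists differed. Of the 12 peaks of the pyrophosphatase list, 16.7% were called higher in each fraction, above the shares of all peaks. In AThi the iron-sulphur list (8.33%) and the endoplasmic reticulum complex list (7.69%) were also above 7.57%. The shares of higher calls of all other lists were below, as were those of these last lists in ATlo.

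Among genes listed with Slc15a4, the Toll-like receptor Tlr9 and the transcription factor Irf5, both of the pathway that needs Slc15a4, were called lower. Tlr7, on the same list, had no called peak. Of the 33 peaks of that list, 3.03% were called higher in each fraction, and 9.09% lower in AThi and 6.06% in ATlo. The shares of all peaks were 7.57% higher and 2.74% lower in AThi, and 6.88% and 2.54% in ATlo. The Irf5 promoter flank had log2 changes of -1.75 (SE 0.41) in AThi and -1.92 (SE 0.40) in ATlo, and the Tlr9 promoter -1.23 (SE 0.39) in AThi and -1.29 (SE 0.38) in ATlo, in the authors' deposited tables. Slc15a1, a peptide transporter of the same family, had a peak in exon 38 of Dock9 at 1.30 (SE 0.19) in AThi and 1.43 (SE 0.18) in ATlo in the authors' deposited tables. For Slc36a1, a lysosomal amino acid transporter listed with Mfsd1, a peak in a 3′ UTR had 2.09 (SE 0.28) in AThi and 1.60 (SE 0.28) in ATlo in the authors' deposited tables. Slc38a9, the lysosomal arginine sensor, had an intron 1 peak at -0.98 (SE 0.36) in AThi, which was not called, and -1.46 (SE 0.37) in ATlo, which was, in the authors' deposited tables. Of the 9 genes listed with Ubr4, 1 was called, the ubiquitin ligase gene Fbxo11. Its promoter had -0.37 (SE 0.14) in AThi, not called, and -0.44 (SE 0.14) in ATlo, called lower, in the authors' deposited tables. This promoter was among the 1810 strongest, whose median log2 changes against young HSCs were -0.22 in AThi and -0.31 in ATlo. Of the 28 peaks of that list, 0% were called in AThi and 3.57% lower in ATlo, where 2.54% of all peaks were.

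Among genes listed with the 3 mitochondrial genes (Wars2, Ppa2 and Iscu), calls were made in both directions. Of 14 tRNA synthetase genes with a peak, 2 had a higher and 1 a lower peak in each fraction. Of their 52 peaks, 3.85% were called higher and 1.92% lower in AThi, and 5.77% higher and 1.92% lower in ATlo, all below the shares of the whole series. The peak assigned to Tars2, in exon 11 of Rprd2, had log2 changes of 1.75 (SE 0.35) in AThi and 2.06 (SE 0.34) in ATlo in the authors' deposited tables. A distal peak of Lars2 had 0.89 (SE 0.24) in AThi and 0.81 (SE 0.24) in ATlo in the authors' deposited tables. The Ears2 promoter had -0.51 (SE 0.15) in AThi and -0.47 (SE 0.15) in ATlo in the authors' deposited tables. Ppa1, the cytosolic pyrophosphatase, had a peak in a 3′ UTR upstream of its start site, at 0.94 (SE 0.16) in AThi and 0.70 (SE 0.16) in ATlo in the authors' deposited tables. Lhpp, a phosphatase gene, had an intron 6 peak called lower in AThi, at -0.86 (SE 0.29), and not called in ATlo, at -0.36 (SE 0.26), in the authors' deposited tables. Of 18 iron-sulphur assembly genes with a peak, 2 had a higher and 1 a lower peak in AThi, and 1 had a higher and 5 a lower peak in ATlo. Of their 60 peaks, 8.33% were called higher and 1.67% lower in AThi, and 5% higher and 8.33% lower in ATlo, beside 7.57% and 2.74% of all peaks in AThi and 6.88% and 2.54% in ATlo. The peak assigned to Fdxr, the ferredoxin reductase gene, lies in exon 3 of Fads6 and had -0.76 (SE 0.36) in AThi and -1.34 (SE 0.37) in ATlo in the authors' deposited tables. The promoter of Hscb, a cochaperone of Iscu, had -0.31 (SE 0.14) in AThi and -0.45 (SE 0.14) in ATlo in the authors' deposited tables. Both were called lower in ATlo alone, and no difference between the fractions was called. Of the lower calls of this list in ATlo, all but that of Fdxr were at promoter peaks. Across the series, 1244 of 18027 promoter peaks with an adjusted p were called lower in ATlo. The strongest promoters had a median log2 change of -0.31 in ATlo against young HSCs. Whether the calls of partner peaks hold with log2 changes centred on these promoters was not tested.

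Of 10 thymidylate and folate genes with a peak, 1 had a higher and 1 a lower peak in each fraction. Of their 48 peaks, 2.08% were called higher and 2.08% lower in each fraction, below the shares of the whole series. Rrm2, a subunit of ribonucleotide reductase, had a distal peak at 0.67 (SE 0.23) in AThi and 0.84 (SE 0.22) in ATlo in the authors' deposited tables. A peak on its promoter flank was lower in AThi, at -1.13 (SE 0.35), and not called in ATlo, at -0.40 (SE 0.30), in the authors' deposited tables. The Rrm1 promoter, of the other subunit, was called lower in ATlo alone, with -0.35 (SE 0.17) in AThi and -0.52 (SE 0.16) in ATlo in the authors' deposited tables. Of 8 other subunit genes of the endoplasmic reticulum complex with a peak, 1 was called, Emc2. It had a distal peak at 0.67 (SE 0.22) in AThi and 0.39 (SE 0.22), not called, in ATlo, in the authors' deposited tables. Of the 13 peaks of that list, 7.69% were called higher in AThi, where 7.57% of all peaks were, and 0% in ATlo. Between AThi and ATlo, 0 of the 266 partner peaks were called, as for the series as a whole.

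The peaks most like the extreme ones were sought among peaks of other named genes called in both comparisons with young HSCs, by the distance between their pairs of log2 changes. The closest match, at a distance of 0.0188, was a distal peak of Pex5l for Ubr4, with 2.51 (SE 0.63) in AThi and 2.26 (SE 0.63) in ATlo in the authors' deposited tables. For Mfsd1 it was intron 2 of Gpr158 at a distance of 0.0312, with 3.42 (SE 0.72) in AThi and 3.42 (SE 0.72) in ATlo in the authors' deposited tables. For Ppa2 it was a peak in a 3′ UTR, assigned to Kcnj11, at 0.0348, with 2.70 (SE 0.29) in AThi and 2.95 (SE 0.28) in ATlo in the authors' deposited tables. Slc15a4 had its closest match at 0.117, a weak distal peak of Kcnh8 with 7.72 mean normalised counts in the authors' deposited tables. The closest matches of Wars2 and Tyms lay at 0.0523 and 0.0650. Those of the lower peaks of Emc3 and Iscu were the farthest, at 0.322 and 0.513. Likeness here spans 2 comparisons that share their young libraries.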

How the data were processed

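ATAC-seq was compared between old AThi, old ATlo and young HSCs. Per the submitters' processing notes, reads were handled with cutadapt, Trim Galore and BWA, peaks with MACS2 and ChIPseeker, and counts with featureCounts and DESeq2. Settings are not given in the sources used here. Whether reads were shifted for the transposase and how peaks were merged is likewise not given, and these steps set where peaks lie. The deposited tables hold 0 columns of values per sample. Per the file headers they give the authors' mean normalised count per peak (a signal value), log2 fold change with its SE, Wald statistic (a score), p-value and Benjamini-Hochberg adjusted p-value. Depth per library is unknown. The tables came from 1 fit: the comparisons with young HSCs differed by the AThi against ATlo change to within 1.02e-14. Calls at an adjusted p under 0.05 were taken as deposited, so the edgeR test planned for counts was not run. An adjusted p was missing for 1831 peaks, none of them a peak of the 8 genes. Intervals are 1.96 SE on each side and measure only the spread between libraries, which may be technical.

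Group levels were derived from the mean count and fold changes and assume plain averages over 11 libraries. The notes name GRCm38 and mm39. Coordinates were taken as mm39, since 15.2% of peaks lay over the tables' own start sites and 0.480% over RefSeq GRCm38.p6 gene starts. RefSeq gave symbols for 20791 of 20810 gene identifiers and the promoter sequences. The RefSeq and deposited gene lengths were equal for Mfsd1 and Emc3, whose promoters are printed. Named genes were the 8, the neighbours of their extreme peaks, up to 3 called genes per partner list and the closest match in log2 changes. An item that this rule selected is not reported here. The members, lists and tests were chosen with earlier results of these data known. The scaling and adjustment steps were tested on simulated data. Python 3.11.15, pandas 2.3.3 and scipy 1.17.1 were used.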

Additional observations from a re-analysis of the deposited data

How the results depend on the processing

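The 8 extreme peaks were chosen for their size against young HSCs, so it says nothing of their stability that they kept direction and call when chosen by log2 change instead of the Wald statistic (the same 8 peaks), with a mean normalised count of at least 10, and with log2 changes centred on the 1810 strongest promoters. That scaling shifted log2 changes by 0.22 in AThi and 0.31 in ATlo against young HSCs, since these medians were -0.22 and -0.31. In AThi the 5 lower calls among the 38 peaks became 3 at an adjusted p under 0.01 and 3 with the scaling, and higher calls stayed within 1.5 times of 10 under every setting. Between AThi and ATlo the scaling turned the sign at Mfsd1 (log2 -0.0518) and Wars2 (log2 -0.0310), neither of which was called. It also turned the sign of the median of the 30 other peaks, to 0.04 in AThi and 0.12 in ATlo against young HSCs and to -0.05 between AThi and ATlo, with no test made. Fits without a library were not run because the tables hold no values per sample. No paired analysis was possible because the columns carry no sample or replicate number.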

Other observations

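The region around Wars2 held further peaks that were higher in the old fractions. Within 200 kb of its extreme peak, the 6 other peaks called higher in both fractions had a median log2 change of 1.99 in AThi and 2.01 in ATlo against young HSCs in the authors' deposited tables. All 17 other peaks there had a median of 0.88 in AThi and 0.81 in ATlo, against -0.06 and -0.18 for the 12 around Mfsd1 and -0.09 and -0.20 for the 10 around Slc15a4, in the authors' deposited tables. The window was chosen after the values had been seen, and no test was made.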
